A study of Mus musculus with 6 samples.

Results

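AP-1 is a family of dimeric transcription factors whose transcripts were followed in RAW 264.7 cells, an established mouse macrophage line, after 2 h with lipopolysaccharide (LPS, 100 ng/ml) together with LPS-binding protein (LBP, 100 pM), set against untreated cells of the same line kept for 2 h. The family was taken as 9 genes: the Fos genes Fos, Fosb, Fosl1 and Fosl2, the Jun genes Jun, Junb and Jund, and Atf3 and Maff. Its members were all probes of the array whose platform annotation gives 1 of these symbols alone, which found 9 probes of 8 genes among 16281 probes and 10698 named genes. Fosb had no such probe. Junb had a value on 1 array, so 7 genes with 8 probes were measured on every array. The 6 arrays carried 2 colours and form 3 sets, each with the treated RNA in Cy5 on 1 array and in Cy3 on the other. No label ties the sets to cultures of their own, so p-values measure only the spread between these sets, which may be technical. LPS alone and LBP alone were not analysed here.

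A Fos protein pairs with a Jun protein through a leucine zipper, and the pair binds the DNA element called TRE or, with ATF partners, the related element CRE. Jun proteins can also pair with each other, whereas Fos proteins cannot. In macrophages, LPS acts through Toll-like receptor 4 and the MAP kinases, which both raise transcription of AP-1 genes and phosphorylate their proteins. Transcripts of Fos and Jun are textbook immediate early transcripts, made within minutes of a stimulus and quickly degraded.

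Each value is a log2 ratio of LPS and LBP over untreated, so that positive values mean more transcript in treated cells. It shows no absolute level, and in RNA of whole cultures fewer cells and less RNA per cell cannot be told apart. Deposited ratios were read as Cy5 over Cy3, a likely direction that rests on how the channels are named. All 6 of 6 LPS-induced genes looked up (Tnf, Il1b, Ccl2, Ccl4, Cxcl10 and Tnfaip3) were positive on every array with treated RNA in Cy5 and negative on every swapped array, before the sign of the swapped arrays was turned. Of the macrophage markers listed, 8 of 10 were measured on all arrays. By limma at an adjusted p under 0.05, 2 were higher (Adgre1 and Spi1) and 2 lower (Csf1r and Fcgr1). Of 15 measured markers of lymphocytes, fibroblasts, endothelium and epithelium, limma called 0 higher and 0 lower, with 4 higher and 0 lower at an unadjusted p under 0.05. Of all 11231 features tested, 7.35% were higher and 7.45% lower at an adjusted p under 0.05. By the unadjusted measure 13.3% were higher and 14.8% lower. A ratio does not tell whether a marker is present.

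The regulatory stretches upstream of 4 members are shown because AP-1 and ATF proteins are known to act on AP-1 genes themselves. These 4 include 2 that rose and 2 that did not, and only stretches with a match are shown. Each is the 130 bases before the annotated start in RefSeq (GRCm38.p6), written 5′ to 3′ on the strand of the gene, with matches in capitals to TGANTCA (the TRE, N being any base), TGACGTCA (the CRE), TGACATCA (a TRE-like element) or TGACG (the CRE core, which also lies within the CRE), searched on both strands. They are Fos at chr12:85473760-85473889 (+), Jun at chr4:95052223-95052352 (-), Atf3 at chr1:191183334-191183463 (-), and the middle and the farthest downstream of 3 annotated starts of Maff at chr15:79347390-79347519 (+) and chr15:79348272-79348401 (+).
Fos: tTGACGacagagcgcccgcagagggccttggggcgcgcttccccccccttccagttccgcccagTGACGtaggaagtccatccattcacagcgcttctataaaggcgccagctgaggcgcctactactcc
Jun: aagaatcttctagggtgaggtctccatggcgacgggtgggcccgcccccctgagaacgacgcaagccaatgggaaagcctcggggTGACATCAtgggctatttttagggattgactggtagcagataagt
Atf3: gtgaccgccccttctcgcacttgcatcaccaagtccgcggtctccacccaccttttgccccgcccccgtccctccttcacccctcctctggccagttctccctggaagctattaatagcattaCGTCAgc
Maff, the middle start: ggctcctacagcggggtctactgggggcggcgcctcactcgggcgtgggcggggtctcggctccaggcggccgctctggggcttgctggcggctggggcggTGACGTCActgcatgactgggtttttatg
Maff, the start farthest downstream: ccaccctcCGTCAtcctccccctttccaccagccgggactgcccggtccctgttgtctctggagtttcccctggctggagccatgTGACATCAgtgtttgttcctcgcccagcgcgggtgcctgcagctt

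RefSeq held such stretches for 8 of the 9 members, all but Fosl1, with 10 starts in all. Members are counted per gene over any of its starts, but the percentages over all genes are per stretch. The units thus differ, and a gene with several starts, such as Maff, has more chances of a match. Over 250 bases before the start, TGANTCA was found in 0 of the 8 members and in 6.75% of 32851 such stretches of all genes. TGACGTCA was found in Maff, at position -29 of the middle start, and in 1.55% of all stretches. TGACATCA was found in Jun and Maff, at position -45 in both, and in 2.93% of all stretches. In Jun it is the element known to bind Jun and ATF proteins. The CRE core TGACG was found in Fos (positions -129 and -66), Fosb, Junb, Atf3 (position -7) and Maff, and in 17.8% of all stretches. Neither Jund nor Fosl2, which both rose, had a match to any of the 4 elements, nor did the first start of Maff. A match is a description of the letters and does not show binding.

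After 2 h with LPS and LBP, 5 of the 7 measured members were higher and 1, Jun, was lower by limma at an adjusted p under 0.05, while Fos did not pass. Over all 11231 features of the array (genes, or probes without a single symbol), 7.35% were higher and 7.45% lower, and over the 9472 named genes 7.58% and 7.53%. The 5 higher members were the Fos-related genes Fosl1 and Fosl2, the Jun gene Jund, Atf3 and Maff. Their mean log2 ratios lay between 0.78 and 0.99, or 1.72-fold to 1.99-fold, and no 2-fold change was reached. By mean ratio they ranked 126 (Atf3), 135 (Maff), 137 (Jund), 153 (Fosl1) and 166 (Fosl2) from the top. The median over the 7 members was 0.84, against -0.00 over all features.

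**Figure D1:**
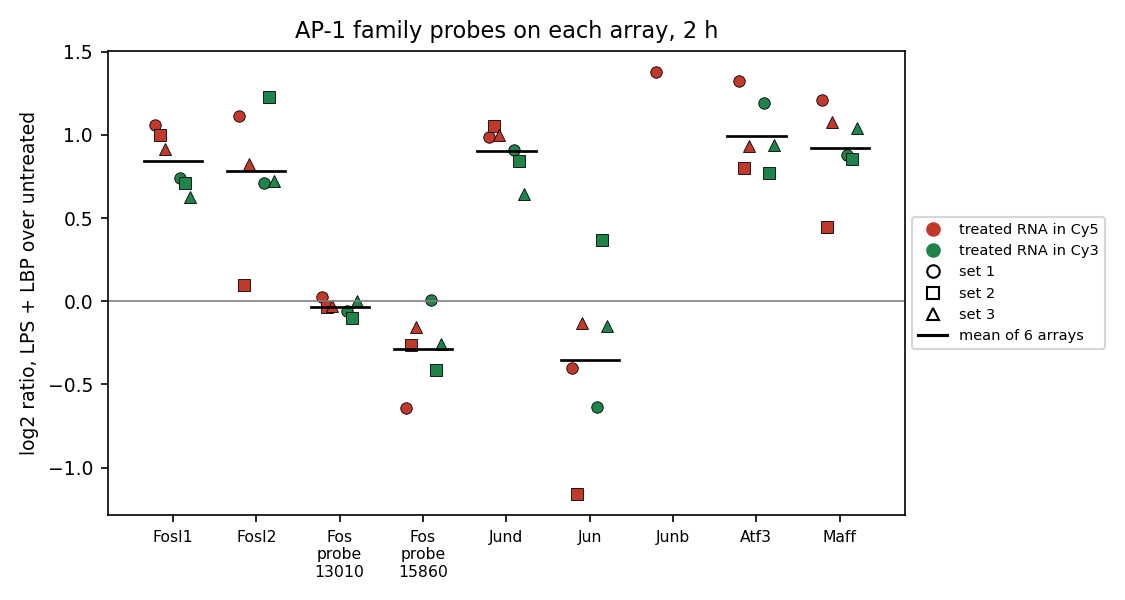
Log2 ratio of LPS and LBP over untreated (vertical axis) of each AP-1 probe on each array. Red points are arrays with treated RNA in Cy5 and green points those in Cy3, the marker shape gives the set, and bars are the mean of 6 arrays. Fosl1, Fosl2, Jund, Atf3 and Maff lie above 0 on every array, both Fos probes lie near or below 0, Jun is split in set 2, and Junb has 1 value.

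Fosl1 encodes FRA-1, a Fos-related protein without the strong activation domain of Fos. Its log2 ratio was 1.06, 1.00 and 0.92 on the arrays of sets 1, 2 and 3 with treated RNA in Cy5 and 0.74, 0.71 and 0.63 on those with treated RNA in Cy3. Every value was positive, and the Cy5 and Cy3 arrays did not overlap. The mean of the sets was 0.84 ± 0.06 (SD, n = 3 sets, 1.79-fold, adjusted p = 0.00017). The mean of the Cy5 arrays exceeded that of the Cy3 arrays by 0.30, which did not pass as a dye difference (limma with a dye term, adjusted p = 0.0857).

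Fosl2 encodes FRA-2, the other Fos-related protein. Its log2 ratio was 1.11, 0.10 and 0.82 on the Cy5 arrays of sets 1 to 3 and 0.71, 1.23 and 0.72 on the Cy3 arrays. The arrays of set 2 held both the lowest and the highest of these values, yet their mean, 0.66, lay near the 0.91 and 0.77 of sets 1 and 3. The mean was 0.78 ± 0.12 (1.72-fold, adjusted p = 0.000523). Without the Cy3 array of set 2 it was 0.59, with adjusted p = 0.117, and with the Cy5 arrays alone 0.68, with adjusted p = 0.14.

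Fos, the founding member, was measured by 2 probes that disagreed. Probe 13010 gave 0.03, -0.04 and -0.03 on the Cy5 arrays of sets 1 to 3 and -0.06, -0.10 and 0.0001 on the Cy3 arrays. Probe 15860 gave -0.64, -0.26 and -0.15 on the Cy5 arrays and 0.01, -0.41 and -0.26 on the Cy3 arrays. The first stayed close to 0 throughout, and the second was negative on 5 of 6 arrays. Fitted on their own, probe 13010 had a mean of -0.03 ± 0.03 (adjusted p = 0.722) and probe 15860 a mean of -0.29 ± 0.07 (adjusted p = 0.0127). The call of probe 15860 was lost in 4 of its 5 alternatives, without set 1 (adjusted p = 0.0688), without set 3 (adjusted p = 0.0802), with the Cy5 arrays alone (adjusted p = 0.15) and with the Cy3 arrays alone (adjusted p = 0.25). Averaged as 1 gene, Fos stood at -0.16 ± 0.05 (adjusted p = 0.0734).

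Jund encodes JunD, the Jun protein known for steady expression in resting cells and for restraining growth. Its log2 ratio was 0.99, 1.05 and 1.00 on the Cy5 arrays of sets 1 to 3 and 0.91, 0.84 and 0.64 on the Cy3 arrays. All 6 were positive, and the sets lay close together at 0.95, 0.95 and 0.82. The mean was 0.91 ± 0.07 (1.87-fold, adjusted p = 0.00014). Jund was the 1 member that also passed a test against a 1.5-fold change (adjusted p = 0.0253), for which the other higher members had adjusted p from 0.0636 (Fosl1) to 0.429 (Fosl2).

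Jun encodes c-Jun, a strong activator among the Jun proteins. Its log2 ratio was -0.40, -1.16 and -0.13 on the Cy5 arrays of sets 1 to 3 and -0.64, 0.37 and -0.15 on the Cy3 arrays. The set 2 arrays were the lowest and the highest of the 6 and had opposite signs, so that the value of this set, -0.40, averages a clear minus and a plus. The mean of the sets was -0.35 ± 0.19 (1.28-fold lower, adjusted p = 0.0302, negative on 5 of 6 arrays). The call held on the averaged sets but not on single arrays: with the 6 arrays fitted one by one the adjusted p was 0.31. It was lost without set 1 (-0.27, adjusted p = 0.114), without the Cy5 array of set 1 (-0.39, adjusted p = 0.0851) or its Cy3 array (-0.31, adjusted p = 0.0901), and without the Cy5 array of set 2 (-0.10, adjusted p = 0.778) or its Cy3 array (-0.61, adjusted p = 0.157).

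Junb encodes JunB, which competes with c-Jun for partners. It was measured on the Cy5 array of set 1 alone, at 1.38, and has no test. The same array gave 1.32 for Atf3 and 1.21 for Maff.

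Atf3 encodes a stress-induced ATF protein that pairs with Jun proteins and is known to restrain cytokine genes in LPS-treated mouse macrophages. Its log2 ratio was 1.32, 0.80 and 0.93 on the Cy5 arrays of sets 1 to 3 and 1.19, 0.77 and 0.94 on the Cy3 arrays. The 2 arrays of each set lay close together, and set 1 was the highest in both orientations. The mean was 0.99 ± 0.24 (1.99-fold, adjusted p = 0.00104).

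Maff encodes a small Maf protein, which has a leucine zipper but no activation domain and pairs with CNC proteins such as Nrf2. Its log2 ratio was 1.21, 0.44 and 1.08 on the Cy5 arrays of sets 1 to 3 and 0.88, 0.86 and 1.04 on the Cy3 arrays. The lowest value was again on the Cy5 array of set 2, and all 6 were positive. The mean was 0.92 ± 0.23 (1.89-fold, adjusted p = 0.00128), and with the Cy5 arrays alone 0.91, with adjusted p = 0.0598.

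**Figure D2:**
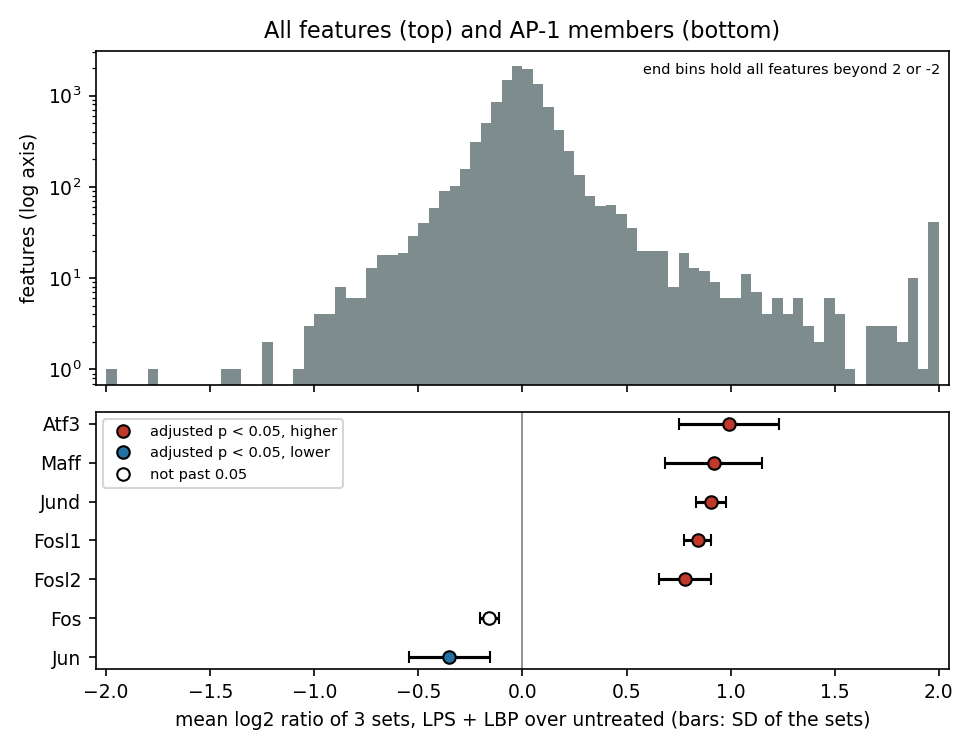
Top, number of features (log axis) by mean log2 ratio of 3 sets, LPS and LBP over untreated, with the end bins holding everything beyond 2 or -2. Bottom, mean and SD of the 3 sets for the 7 members measured on all arrays, red for higher, blue for lower and white for not past an adjusted p of 0.05. The 5 higher members stand together between 0.78 and 0.99, apart from Fos at -0.16 and Jun at -0.35.

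**Figure D3:**
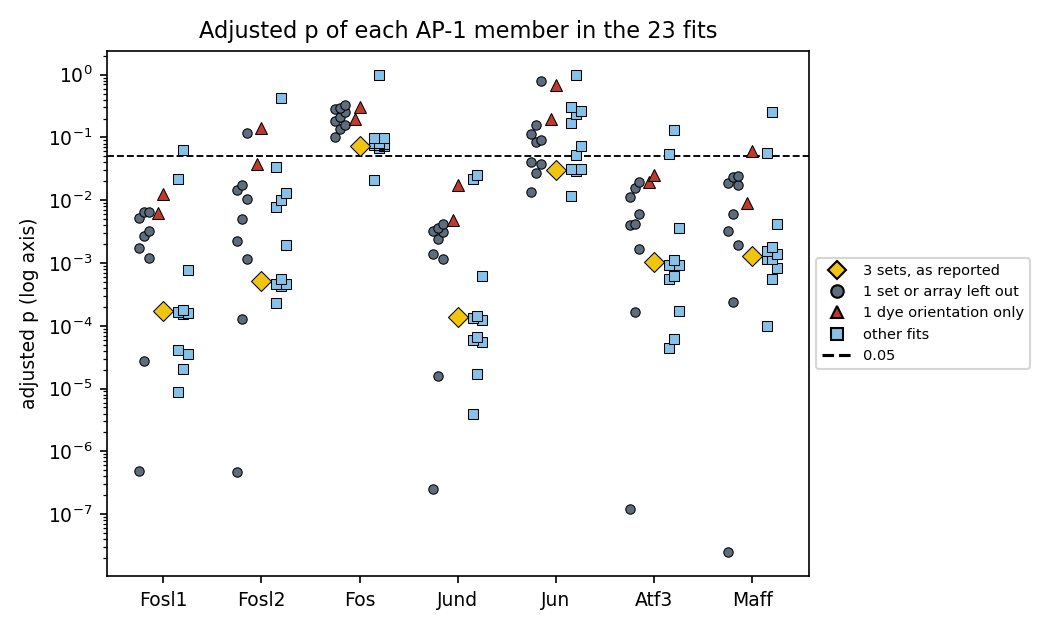
Adjusted p (log axis) of each measured member in 23 fits: the reported fit of 3 sets, fits that leave out a set or an array, fits of 1 dye orientation, and other settings. The dashed line is 0.05. Jund lies below it in every fit, Jun lies above it in 14 of the 22 alternatives, and Fos lies above it in all fits but 1.

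Within each family the members split. The log2 ratios of Fosl1 and Fosl2 exceeded that of Fos by 1.00 ± 0.10 and 0.94 ± 0.12 (SD of the difference in 3 sets). That of Jund exceeded that of Jun by 1.26 ± 0.26. The 3 differences between Jund and Jun were 1.47, 1.34 and 0.96. All 10 pairs that set a higher member (Fosl1, Fosl2, Jund, Atf3 or Maff) against Fos or Jun had set values that did not overlap, and in 9 of them the single arrays did not overlap either. The exception was Fosl2 against Jun, through the arrays of set 2. The higher members were picked by calls on these same set values, so the lack of overlap describes that sorting and does not test it. A sign-flip permutation over 3 sets, exact and two-sided, gave p = 0.25 for each of these 10 pairs. In all, 14 of the 21 pairs had this p, also Fos with Jun, Jund with Fosl1 or Fosl2, and Atf3 with Fosl2. The permutation therefore does not set the groups apart. No smaller p is possible in this exact permutation with 3 sets, so it cannot pass 0.05, and adjusted over the 21 pairs compared p = 0.375.

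Between the 5 higher members no such gap was seen. The 10 differences among them lay between 0.01 (Maff minus Jund) and 0.21 (Atf3 minus Fosl2), with SDs up to 0.28 and overlapping set values in each pair. The log2 ratio of Fos exceeded that of Jun by 0.19 ± 0.16, with overlapping set values. In the order Atf3, Maff, Jund, Fosl1, Fosl2, Fos, Jun, the set values of neighbours overlapped at every step but that between Fosl2 and Fos. The ratio of Jund exceeded that of its neighbour Fosl1 by 0.06 ± 0.03, with the same sign in each of the 3 sets.

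The genes with the most similar profile were sought among all named genes, by the root mean square (RMS) difference of the log2 ratio over the 6 arrays. Nearest to Fosl1 came Resf1 (RMS difference 0.09, mean log2 ratio 0.84), 6330407A03Rik (0.11 and 0.76) and Smox (0.11 and 0.75). Nearest to Jund were Trip10 (0.11 and 0.99), the macrophage marker Adgre1 (0.11 and 0.83) and the metallothionein gene Mt2 (0.11 and 0.89). For Atf3 they were the TNF receptor gene Tnfrsf1b (0.10 and 1.04), Noct (0.17 and 0.94) and Zfp275 (0.17 and 1.08), for Fosl2 Slc6a4 (0.12 and 0.75), Rnf19b (0.13 and 0.68) and Mtmr7 (0.14 and 0.89), and for Maff Plek2 (0.21 and 0.97), Stap1 (0.21 and 0.87) and Bcl6b (0.21 and 1.01). Jun was followed most closely by Hdac9 (0.12 and -0.42), Cbx2 (0.16 and -0.28) and Chek1 (0.19 and -0.29). Nearest to Fos were Tmpo (0.06 and -0.14), Ulbp1 (0.07 and -0.14) and Alkbh4 (0.07 and -0.15), none of which passed the test. This likeness is a description over 6 arrays, which pair by set. The measure counts each array, so the genes near Jun and Fosl2 also shared the wide spread of their set 2 arrays. Those arrays gave -1.16 and 0.37 for Jun and 0.10 and 1.23 for Fosl2. How much of the likeness follows the treatment was not tested.

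Around the family, 7 lists of related genes held 93 genes, of which 66 were measured on all arrays. Of these 23 were higher, 5 lower and 38 not past the threshold, with a median log2 ratio of 0.13, beside 7.35% higher and 7.45% lower among all features.

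**Figure D4:**
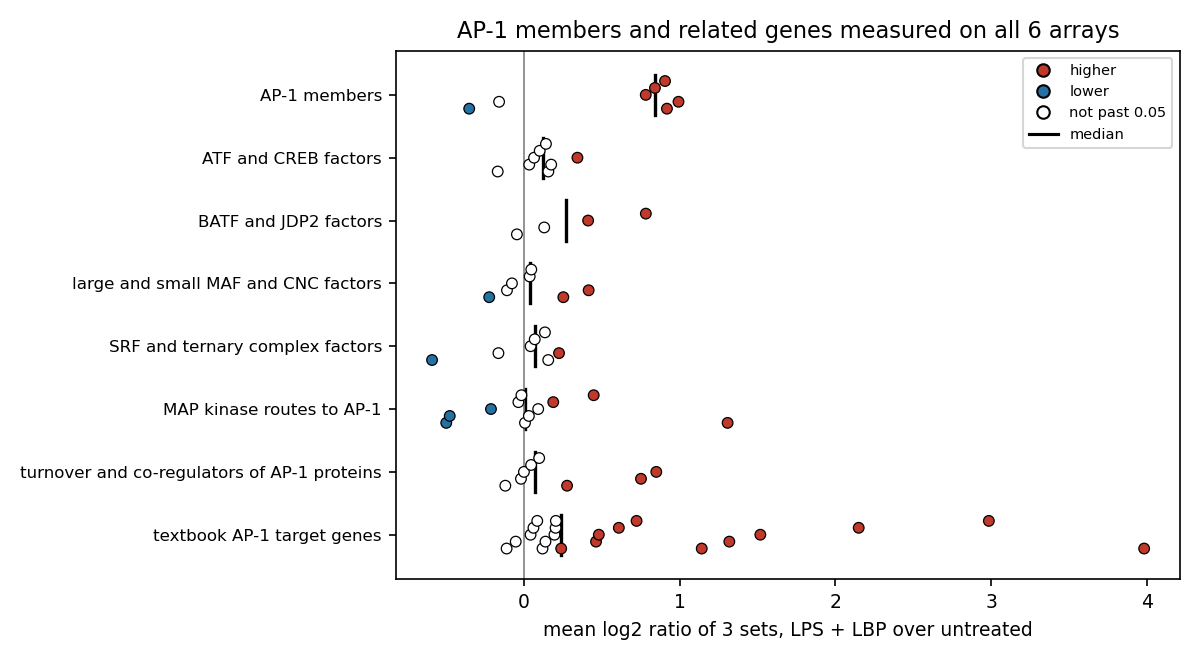
Mean log2 ratio of 3 sets, LPS and LBP over untreated (horizontal axis), of the AP-1 members and of 7 lists of related genes. Red points are higher, blue points lower and white points not past an adjusted p of 0.05, and bars are list medians. The medians of the 3 other lists of leucine zipper factors run from 0.04 to 0.27, against 0.84 for the AP-1 members.

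Among other leucine zipper factors, the closest relatives of the family showed 2 of 4 higher and 0 lower by limma (0 lower also before adjustment, at p under 0.05), and the median was 0.27. Over all features 7.35% were higher and 7.45% lower, and 14.8% lower before adjustment. Jdp2, a partner of Jun proteins that represses AP-1 sites, stood at 0.78 ± 0.30 (1.72-fold, adjusted p = 0.00563, positive on 6 of 6 arrays). Its call was lost without set 3 (adjusted p = 0.0654) and without the Cy3 array of set 1 (adjusted p = 0.0647). The call of Jdp2 was also lost with the Cy5 arrays alone (adjusted p = 0.0736) and with zeros kept as ratios of 0 (adjusted p = 0.101). Nor did Jdp2 pass the test against a 1.5-fold change. Batf, which pairs with Jun proteins in lymphocytes and dendritic cells, stood at 0.41 ± 0.21 (1.33-fold, adjusted p = 0.0203) and lost its call in 5 of 9 fits that left out a set or an array (adjusted p up to 0.13). Batf2 (0.13 ± 0.07) and Batf3 (-0.05 ± 0.11) did not pass.

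Of the ATF and CREB factors, 1 of 8 was higher and 0 lower by limma (3 higher and 1 lower at an unadjusted p under 0.05), beside 7.35% and 7.45% of all features (13.3% and 14.8% unadjusted), and the median was 0.12. The higher gene was Atf5, at 0.34 ± 0.12 (1.27-fold, adjusted p = 0.0121), whose call was lost in 4 of 9 leave-out fits (adjusted p up to 0.156). Atf2, chosen after its value was seen, stood at 0.14 ± 0.12, but its arrays split by dye. Its log2 ratio was -1.51, -0.75 and -0.51 on the Cy5 arrays of sets 1 to 3 and 1.70, 0.85 and 1.07 on the Cy3 arrays. The dye difference of -2.13 did not pass (limma with a dye term, adjusted p = 0.0529). Even so, the mean of Atf2 does not show an unchanged transcript.

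Of the other MAF and CNC factors, 2 of 7 were higher and 1 lower, beside 7.35% and 7.45% of all features, with a median of 0.04. Mafk, a small Maf gene like Maff, rose by 0.42 ± 0.004 (1.33-fold, adjusted p = 0.00188), with values from 0.34 to 0.48 on the 6 arrays. Mafg, the remaining small Maf gene, stood at -0.11 ± 0.01 (adjusted p = 0.17). Mafg was chosen after its value was seen. Nfe2l1, which encodes a CNC partner of small Maf proteins, stood at 0.25 ± 0.05 (adjusted p = 0.0162) and Nfe2l2, which encodes Nrf2, at -0.22 ± 0.08 (adjusted p = 0.0362). Both calls were fragile, lost in 6 and 8 of 9 leave-out fits (adjusted p up to 0.485 and 0.302).

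Upstream of the family, a list of SRF, its ternary complex factors, known from the Fos promoter, and the related MEF2 factors had 1 of 7 higher and 1 lower. The shares over all features were 7.35% and 7.45%, and the list median was 0.07. The MEF2 genes Mef2a, Mef2c and Mef2d, whose proteins bind sites of their own, did not pass. Elk3, a ternary complex factor known as a repressor, fell by 0.59 ± 0.01 on the log2 scale (1.51-fold, adjusted p = 0.000456) and was between -0.72 and -0.48 on the 6 arrays. Elk4, a related activator, stood at 0.23 ± 0.09 (adjusted p = 0.0369) and lost its call in 8 of 9 leave-out fits (adjusted p up to 0.378).

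Of the MAP kinase genes that lead to AP-1, 3 of 11 were higher and 3 lower, beside 7.35% and 7.45% of all features, with a median of 0.01. That median is the value of Mapk8, a gene chosen after its value was seen, whose arrays split by dye. Its log2 ratio was -1.19, -1.24 and -1.17 on the Cy5 arrays of sets 1 to 3 and 1.25, 1.49 and 0.91 on the Cy3 arrays. The dye difference was -2.42 (limma with a dye term, adjusted p = 0.00919), so the mean near 0 does not show an unchanged transcript. Mapk9, also chosen after its value was seen, split the same way. It stood at -0.30, -0.64 and -0.31 on the Cy5 arrays of sets 1 to 3 and at 0.30, 0.56 and 0.17 on the Cy3 arrays. The dye difference of Mapk9, -0.76, did not pass (limma with a dye term, adjusted p = 0.0618). Its mean of -0.04 does not show an unchanged transcript either. Map3k8 encodes TPL2, the kinase that links LPS to the ERK cascade, and rose 2.48-fold (1.31 ± 0.12, adjusted p = 5.75e-05), more than any of the 7 AP-1 members measured on all arrays. Mapkapk2, a kinase downstream of p38, rose 1.36-fold (0.45 ± 0.05, adjusted p = 0.00176). Mapk14, which encodes p38 alpha itself, fell by 0.50 ± 0.07 on the log2 scale (adjusted p = 0.00148), and Map3k1, an activator of the JNK route, fell by 0.48 ± 0.04 (adjusted p = 0.00129). Each of these 4 kept its sign on 6 of 6 arrays and its call in all 9 leave-out fits, but Mapk14 lost its call with zeros kept as ratios of 0 (-0.48, adjusted p = 0.168). Map2k4 (0.19 ± 0.04, adjusted p = 0.0412) lost its call in 9 of 9 leave-out fits (adjusted p up to 0.278) and Map3k5 (-0.21 ± 0.07, adjusted p = 0.0383) in 8 of 9 (adjusted p up to 0.426).

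Genes for turnover, restraint and co-regulation of AP-1 had 3 of 8 higher and 0 lower by limma (1 lower before adjustment, at p under 0.05), and the median was 0.07. Over all features 7.35% were higher and 7.45% lower, and 14.8% lower before adjustment. The gene lower before adjustment was Nfatc1, which encodes a partner of AP-1 on DNA (-0.12, adjusted p = 0.138, chosen after its value was seen). Zfp36, which encodes an mRNA decay protein that acts on AU-rich transcripts, rose 1.80-fold (0.85 ± 0.08, adjusted p = 0.000207). Dusp1, a phosphatase gene that ends p38 and JNK signalling, rose 1.68-fold (0.75 ± 0.10, adjusted p = 0.000411). Cop1, a ubiquitin ligase gene for c-Jun, stood at 0.28 ± 0.03 (adjusted p = 0.00959) and lost its call in 4 of 9 leave-out fits (adjusted p up to 0.156).

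Genes that textbooks list as AP-1 targets had 11 of 21 higher and 0 lower by limma (14 higher and 0 lower before adjustment, at p under 0.05), and the median was 0.24. Among all features 7.35% were higher and 7.45% lower, and 13.3% and 14.8% before adjustment. The largest ratios in the list were those of Il1b (3.98 ± 0.12), Ccl2 (2.99 ± 0.31) and Tnf (2.15 ± 0.18), 3 cytokine genes that other LPS-activated factors also control. All 3 kept their call in all 9 leave-out fits (adjusted p of at most 0.00158). They were also among the 6 LPS-induced genes looked up to check the direction of the ratios. The 10 genes not past the threshold included the matrix metalloproteinase genes Mmp9 (0.06 ± 0.09) and Mmp13 (0.20 ± 0.18) and the cyclin gene Ccnd1 (-0.11 ± 0.05), which were chosen after their values were seen.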

How the data were processed

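The deposited table holds log2 ratios, 1 per probe and array, made by the authors. The log base was judged from the values, since 87.3% to 92.8% of them on an array, zeros aside, are log10 numbers of 7 decimals rescaled to base 2. How dyes were normalized and background corrected is not given in the sources used here. Exact zeros (9.12% to 12.4% of an array) were taken as missing. Ratios of the arrays with treated RNA in Cy3 were multiplied by -1. Probes measured on all arrays were averaged per gene, and the 2 arrays of a set, whose numbers come from the labels, were averaged, which cancels a dye effect. With signs as deposited, same-numbered arrays deviated together from the mean of their orientation (r = 0.41, 0.45 and 0.15 across features for sets 1, 2 and 3), and with the signs turned they deviated in opposite directions. The mean of 3 sets was tested against 0 with limma 3.58.1 (R 4.3.3, eBayes, two-sided) over 11231 features with Benjamini-Hochberg adjustment and a threshold of 0.05, and the script was tested on simulated data. Spot brightness was not analysed here, and precision is limited by the number of arrays. The members and the gene lists were chosen with earlier results of these data known. All members were named, and of each list the genes past the threshold, at most 3 higher and 3 lower, and every gene of a list of under 5. The alternatives left out a set or an array, used 1 dye orientation, single arrays, a dye term, other treatments of zeros and of probes, other scalings, a robust fit and a test against a 1.5-fold change.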

Additional observations from a re-analysis of the deposited data

Results flagged for a closer look

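Among 31 genes and probes checked, 4 genes had a single array far from the other 5, by a criterion that chance meets for about 1 in 20 groups, and no AP-1 member did. On the arrays with treated RNA in Cy5, set 2 held the lowest value of Elk4, -0.042, and the highest value of Tnf, 2.57. On the arrays with treated RNA in Cy3, set 2 held the lowest value of Batf3, -0.61, and the highest value of Map3k5, 0.0225. All 4 values were thus on arrays of set 2, which also held the lowest and highest values of Jun and Fosl2. The source of this spread was not tested.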

How the results depend on the processing

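Over 22 alternatives for each member, Jund kept its call in all, and no member changed sign. The 5 higher members became 3 with the Cy5 arrays alone and with zeros kept as ratios of 0, and 1 in the test against a 1.5-fold change. With zeros kept, adjusted p was 0.0544 for Atf3 and 0.0571 for Maff. The count of lower members, 1, became 0 with either dye orientation alone, with single arrays without a block, with a dye term, with the dye term and the set as a replicate block (chosen after seeing the data), with zeros kept, with missing values allowed and in the 1.5-fold test. Leaving out a set or an array gave 4 to 5 higher and 0 to 1 lower members. With the set as a random replicate block on single arrays and no dye term, Fos passed (adjusted p = 0.0208), the adjusted p of Jun was 0.0731, and 8 related genes were lower in place of 5. Related genes numbered 13 higher with the Cy5 arrays and 3 lower with the Cy3 arrays, 14 higher and 2 lower with zeros kept, 3 lower with missing values allowed, and 5 higher and 0 lower in the 1.5-fold test. Leave-out fits gave 13 to 23 higher and 3 to 4 lower related genes. Over all features, 826 higher and 837 lower became 347 and 292 with the Cy5 arrays, 408 and 247 with the Cy3 arrays, 492 and 470 with zeros kept, and 124 and 17 in the 1.5-fold test, and leave-out fits gave 352 to 854 higher and 181 to 831 lower. Batf3 (-0.05) turned positive without set 2 (0.02), without its Cy3 array (0.10) and on the Cy5 arrays (0.11), and leave-out fits ranged from -0.19 to 0.10.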
